A study of Mus musculus with 6 samples.

Results

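The H3K27 chromatin of the mK4 cell line was compared, gene by gene, with the chromatin input of the same line. Of 21937 genes listed in the files, 18009 (82.1%) had at least 10 reads in the H3K27 and the input library together, and these were the genes compared. The line mK4 is an immortalized mouse line of the E11.5 metanephros, the embryonic kidney, from strain CD1. It is used as a model of metanephric mesenchyme at a later stage than its companion line mK3, which carries the same strain and stage labels. For each line the antibodies labelled H3K27 (catalogue number 39535) and H3K4 (ab8898) gave 1 library each, and chromatin that was not pulled down gave 1 input library. The number ab8898 is known as that of an antibody against H3K9 trimethylation, a repressive mark, whereas H3K4 methylation marks active promoters and enhancers. Which mark the library labelled H3K4 holds was not settled here, so its reads are given as values under that label only. The labels name no treatment or genetic change that differs between the libraries of a line, and they do not say whether a line is 1 clone. Each library is an average over all cells of a culture, and the libraries hold DNA rather than RNA, so markers of a cell type can only be described by the reads over their genes.

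Trimethylation of lysine 27 on histone H3 is laid down by Polycomb repressive complex 2 and is found over silent genes, above all over transcription factor genes of lineages that a cell has not entered. Nephrons form when metanephric mesenchyme condenses around the ureteric bud, is induced, and turns into epithelium, while stromal cells remain mesenchymal. Genes of neurons, muscle, endoderm and other lineages stay silent along the way. The labels do not state which degree of methylation the antibody recognises.

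The H3K27 library held 481235 reads over gene exons and the input 386695, and a compared gene had a median of 36 reads in the pair. Among the 4 further libraries the totals lay between 311409 (mK3 input) and 714011 (mK4 H3K4). Of the 3928 genes under 10 reads, 797 were olfactory and 213 vomeronasal receptor genes, and their median exon length was 931 bases against 2658 in the compared genes. Counts were scaled to equal totals, and a gene is called enriched below when log2 of its scaled reads plus 5 was higher in H3K27 than in input by at least 1, a 2-fold difference, and depleted when it was lower by at least 1. The ratios given for single genes are ratios of read shares without the added 5, with an exact 95% Clopper-Pearson interval that covers counting error only. With 1 library per group there was no replicate and no test. On this rule 1832 genes were enriched, which is 10.2% of the genes compared, and 1235 were depleted, which is 6.86%. Enriched genes made up 59.7% of these calls, against 47.7% when exon length replaced the input as background. The median log2 ratio was -0.06, with quartiles of -0.53 and 0.52 and the whole range from -2.76 to 2.71. Counting intervals lay wholly above 1 for 1722 of the enriched genes and wholly below 1 for 1189 of the depleted genes. An interval wholly above 2 was reached by 232 genes, and one wholly below 0.5 by 77. Just inside and outside the limit for enrichment lay 2810459M11Rik, with 47 H3K27 and 17 input reads, and Slc2a9, with 42 and 15. At the limit of reads, the 376 genes with 10 reads in the pair had a median log2 ratio of 0.15, and the 351 genes with 9 reads, which were left out, had 0.00.

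The genes with the highest lower bound of their ratio were led by transcription factors of neural, eye, mesodermal and limb development, together with genes of immune and neuroendocrine cells. Sox1, a factor of early neural progenitors, had 108 H3K27 reads and 11 input reads, a ratio of 7.89 (4.24 to 16.3). Foxb2, a forkhead factor of the developing brain, had 32 reads and 1. Six6, a homeobox factor of the eye field, had 98 and 14 reads, a ratio of 5.62 (3.20 to 10.7). Uncx, a homeobox factor of the somites and of the nephrogenic mesenchyme, had the densest H3K27 signal of the 30 leading genes. Its 151 H3K27 reads against 25 in the input gave 72.0 and 11.9 reads per exon kilobase and a ratio of 4.85 (3.16 to 7.74). Pitx1, which specifies the hindlimb, had 37 H3K27 reads and 3 input reads, and Mesp2, a factor of somite segmentation, had 24 and 1. Pax4, a factor of pancreatic islets, had 23 and 1. Foxl2, the ovarian forkhead factor, had 58 and 7, a ratio of 6.66 (3.03 to 17.3).

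Outside transcription factors, the leading genes included immune, neuronal, pituitary and liver genes. H2-Eb1, an MHC class II chain of antigen-presenting cells, had 26 H3K27 reads and none in the input, at least 6.96-fold against a floor of 3 input reads. The floor leaves out the counting error of the H3K27 reads, and with it the exact lower bound of the ratio was 5.27. Penk, the precursor of enkephalin peptides, had 21 and none, with an exact lower bound of 4.18. C1ql2, a secreted synaptic protein, had 22 and none, with one of 4.40. Lrg1, a secreted glycoprotein of liver and endothelium, had 27 reads and 1, and Tshb, the beta chain of thyrotropin, had 37 and 3. The potassium channel gene Kcna1 had 150 reads against 27, a ratio of 4.46 (2.95 to 7.0), and the chemokine gene Cxcl9 had 58 against 7, a ratio of 6.66 (3.03 to 17.3). Of the 30 leading genes, 6 had no input read and 6 had 1, so that their ratios have wide upper bounds. In the mK3 libraries, which share no library with this pair, 18 of the 30 were enriched on the same rule, beside 11.0% of all genes compared in both lines. None of the 30 was depleted there and 27 had a log2 ratio above 0.

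At the other end stood histone genes and genes that every cell uses. Hist1h1e, a replication-dependent linker histone gene, had 7 H3K27 reads and 60 input reads, a ratio of 0.0937 (0.0361 to 0.205), the lowest log2 ratio of all genes compared. Fastkd5, a mitochondrial RNA-binding protein, had 1 and 20. Hnrnpa0, an RNA-binding protein, had 12 and 49, a ratio of 0.197 (0.0953 to 0.375). Rps20, a protein of the small ribosomal subunit, had no H3K27 read and 12 in the input, and Pgk1, an enzyme of glycolysis, had 1 and 13. Ing1, a chromatin reader, had 11 and 42, a ratio of 0.210 (0.0977 to 0.416). In mK3, 8 of the 20 genes with the lowest upper bound were depleted, beside 6.02% of all genes compared in both lines, none was enriched and 4 had a log2 ratio above 0.

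Promoters of some leading genes are shown because the share of genes called varied with the CpG content around the gene start, which many Polycomb targets are known to have in plenty. The windows run from 250 bases before to 50 after the RefSeq start in build GRCm38.p6, on the strand of the gene, 5′ to 3′, with CpG dinucleotides in capitals. The reads themselves were counted over exons in mm9, so the windows describe the genes and not the place of the signal. Sox1 (chr8:12395269-12395568, plus strand), Hoxd13 (chr2:74667975-74668274, plus strand) and Neurog1 (chr13:56252131-56252430, minus strand) are enriched developmental genes with 37, 37 and 32 CpG dinucleotides. H2-Eb1 (chr17:34305617-34305916, plus strand) and Lrg1 (chr17:56121897-56122196, minus strand) are enriched genes of differentiated cells with 0 and 2. Hist1h1e (chr13:23622509-23622808, minus strand) and Hnrnpa0 (chr13:58128507-58128806, minus strand) are depleted genes with 22 and 52.
Sox1: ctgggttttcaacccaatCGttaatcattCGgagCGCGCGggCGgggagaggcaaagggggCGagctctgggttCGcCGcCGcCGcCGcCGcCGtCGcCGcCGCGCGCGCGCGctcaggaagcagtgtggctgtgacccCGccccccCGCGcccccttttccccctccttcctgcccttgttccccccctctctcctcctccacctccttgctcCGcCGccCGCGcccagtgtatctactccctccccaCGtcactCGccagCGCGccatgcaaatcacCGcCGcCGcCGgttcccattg
Hoxd13: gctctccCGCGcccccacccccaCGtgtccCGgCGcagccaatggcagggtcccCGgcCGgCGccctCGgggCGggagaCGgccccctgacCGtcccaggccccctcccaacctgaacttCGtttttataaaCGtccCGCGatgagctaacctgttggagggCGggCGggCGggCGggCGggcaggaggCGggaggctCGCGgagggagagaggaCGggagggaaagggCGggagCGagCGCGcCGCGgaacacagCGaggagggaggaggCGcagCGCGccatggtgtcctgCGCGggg
Neurog1: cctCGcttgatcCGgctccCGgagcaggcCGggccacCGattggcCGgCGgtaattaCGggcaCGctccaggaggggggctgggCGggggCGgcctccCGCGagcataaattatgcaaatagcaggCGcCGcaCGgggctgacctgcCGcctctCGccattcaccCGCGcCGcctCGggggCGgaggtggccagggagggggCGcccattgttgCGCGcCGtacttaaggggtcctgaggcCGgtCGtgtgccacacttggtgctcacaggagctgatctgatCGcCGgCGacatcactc
H2-Eb1: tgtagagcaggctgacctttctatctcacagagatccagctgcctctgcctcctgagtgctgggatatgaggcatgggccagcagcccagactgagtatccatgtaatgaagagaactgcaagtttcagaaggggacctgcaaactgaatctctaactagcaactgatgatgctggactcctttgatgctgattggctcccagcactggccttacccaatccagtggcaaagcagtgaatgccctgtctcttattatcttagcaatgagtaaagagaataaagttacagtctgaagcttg
Lrg1: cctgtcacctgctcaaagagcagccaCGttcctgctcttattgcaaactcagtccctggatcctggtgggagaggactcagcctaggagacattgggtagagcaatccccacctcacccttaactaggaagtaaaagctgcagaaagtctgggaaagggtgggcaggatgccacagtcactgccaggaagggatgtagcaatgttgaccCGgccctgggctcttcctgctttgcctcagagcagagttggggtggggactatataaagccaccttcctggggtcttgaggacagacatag
Hist1h1e: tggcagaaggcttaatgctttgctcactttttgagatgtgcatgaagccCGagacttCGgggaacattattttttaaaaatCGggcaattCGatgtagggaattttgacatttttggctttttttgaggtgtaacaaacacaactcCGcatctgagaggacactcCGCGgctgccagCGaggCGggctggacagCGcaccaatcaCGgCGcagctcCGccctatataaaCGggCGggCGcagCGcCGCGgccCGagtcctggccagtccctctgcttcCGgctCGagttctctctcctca
Hnrnpa0: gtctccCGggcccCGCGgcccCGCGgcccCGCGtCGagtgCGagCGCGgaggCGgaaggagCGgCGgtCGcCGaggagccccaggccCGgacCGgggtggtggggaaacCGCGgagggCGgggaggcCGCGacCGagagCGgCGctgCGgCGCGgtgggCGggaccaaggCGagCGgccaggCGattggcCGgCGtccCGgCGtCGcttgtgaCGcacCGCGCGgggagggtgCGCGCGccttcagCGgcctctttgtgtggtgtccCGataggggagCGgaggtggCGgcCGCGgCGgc

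These windows were picked to show CpG-rich and CpG-poor enriched genes and do not stand for their classes. Among the 30 leading genes, to which Hoxd13 does not belong, the developmental factors Foxb2 and Mesp2 had 10 CpG dinucleotides each, whereas the potassium channel gene Kcng3 had 49 and Fam78a 35. At least as many CpG dinucleotides as in Sox1 and Hoxd13 were found in 5.58% of all RefSeq windows of this length outside chromosome 18, and at least as many as in Hnrnpa0 in 0.57%. Over the 14016 compared genes with a window (80.0% of those outside chromosome 18, matched by symbol or synonym), CpG-poor genes were enriched more often. Of 1671 genes with 4 to 7 CpG dinucleotides, 19% were enriched and 3.35% depleted, and of 4134 genes with 26 to 67, 5.18% were enriched and 9.63% depleted. Median input density rose from 4.87 to 6.37 reads per exon kilobase between the lowest and the highest CpG group, and median H3K27 density fell from 8.75 to 6.26. The part of base composition in these counts was not tested. Windows were found for 77.0% of the enriched and 82.2% of the depleted genes, so the enriched shares leave out somewhat more genes. For the developmental regulators they were found for 71.3%, a lower share than in these classes, and each CpG group held only 10 to 60 of them. Their enriched share lay between 30% and 46.7% in every CpG group, without the fall seen over all genes. At 26 to 67 CpG dinucleotides 33.3% of 60 regulators were enriched, beside 4.76% of the other genes.

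**Figure D1:**
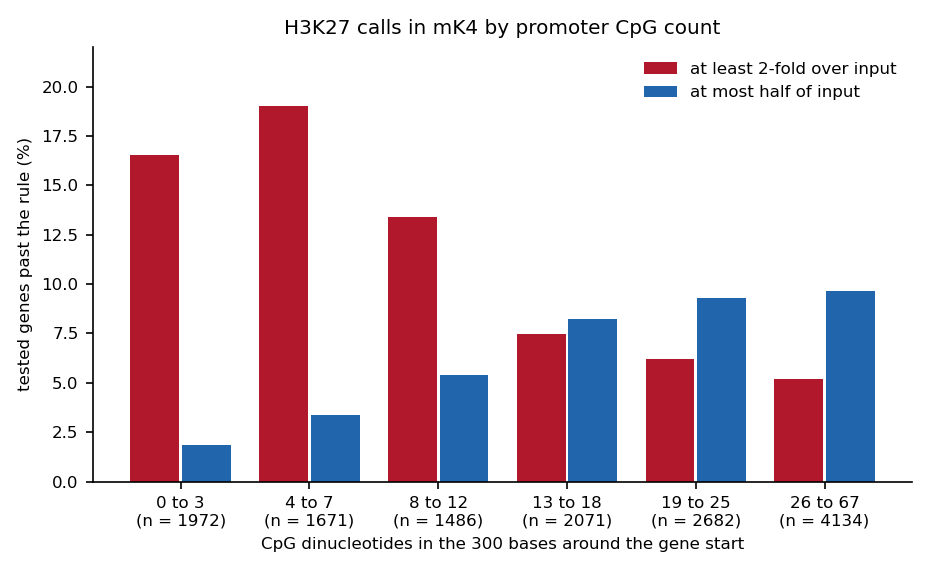
Percent of compared mK4 genes that were enriched (red, H3K27 at least 2-fold over input) or depleted (blue, at least 2-fold under input), by the number of CpG dinucleotides in the 300 bases around the RefSeq gene start, with the number of genes in each group below the bars. The red bars fall from 19% at 4 to 7 CpG to 5.18% at 26 to 67, while the blue bars rise from 1.88% to 9.63%.

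Developmental transcription factors were the class with the largest share of enriched genes among the classes of lists described. Of 320 such genes in 19 lists, 300 were compared, 110 (36.7%) were enriched and 11 were depleted, with a median log2 ratio of 0.64. Among the 17709 compared genes outside these lists, 9.72% were enriched and the median was -0.07. In 18 of the 19 lists the enriched share was above the 10.2% of all genes compared, the exception being the HoxB genes. The HoxA, Irx and GATA lists passed it with 1 enriched gene each, of 9, 6 and 6 compared. HoxA also had 3 depleted genes and Irx 1, and their medians were -0.56 and -0.37.

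Among the lists outside the Hox clusters, neural regulators had the highest medians. Of 45 neural patterning factors compared, 29 were enriched and 1 was depleted, and their median log2 ratio was 1.21. Zic2, a zinc finger factor of the dorsal neural tube, had 52 H3K27 reads and 8 input reads, a ratio of 5.22 (2.46 to 12.7), and En2, which patterns the midbrain and hindbrain, had 57 and 11, a ratio of 4.16 (2.16 to 8.81). Neurogenic bHLH factors, which drive progenitors into neurons, were enriched at 9 of 17 members, with a median of 1.05. Neurod2 had 55 and 9 reads, a ratio of 4.91 (2.41 to 11.3), and Bhlhe23 had 51 and 5, a ratio of 8.2 (3.29 to 26.3). Neurog1 had 24 and 1. None of the 17 was depleted.

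LIM homeobox factors, many of which specify neuron types, were enriched at 5 of 12 members (median 0.77), among them Lhx3 with 38 and 8 reads and Lhx4 with 27 and 4. Lhx1, a LIM factor that the renal vesicle needs, was not: it had 35 reads and 28, a ratio of 1.0 (0.594 to 1.71). Of 17 Sox factors 6 were enriched (median 0.93), with Sox14 at 46 and 6 reads and Sox21 at 58 and 11. The pluripotency factor Sox2 had 48 and 17, a ratio of 2.27 (1.28 to 4.21). Sox4, a factor of many immature and mesenchymal cells, was the depleted member, with 18 and 37 reads, and it had 247 H3K4 reads. Nkx factors were enriched at 4 of 11 members (median 0.63), with Nkx2-1, a factor of thyroid, lung and forebrain, at 40 and 7 reads and Nkx6-1, of pancreas and motor neurons, at 27 and 2.

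Factors of endoderm, muscle, heart and limb were enriched in part. Among 19 endoderm factors 7 were enriched (median 0.85): Foxa2, a pioneer factor of endoderm and floor plate, had 35 and 6 reads, a ratio of 4.69 (1.95 to 13.6), and Mnx1, of pancreas and motor neurons, had 26 and 4. Hnf4a, which also acts in the proximal tubule, had 72 and 26, a ratio of 2.23 (1.40 to 3.63). Muscle and heart factors were enriched at 7 of 21 members (median 0.57). They included Mesp1, a factor of early heart mesoderm, with 19 reads and 1, and Hand2, a factor of heart and limb, with 40 and 8. Of 28 limb and craniofacial factors 9 were enriched (median 0.66), with Tcfap2c, an AP-2 factor of trophoblast and ectoderm, at 60 and 8 reads, a ratio of 6.03 (2.87 to 14.6). T-box factors were enriched at 4 of 17 members (median 0.60), with Tbx4 at 63 and 14 reads, and pluripotency and germline factors at 7 of 24 (median 0.69), with Nanos2 at 27 and 6. None of these 5 lists had a depleted member.

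Forkhead and Iroquois factors split. Of 42 Fox factors 10 were enriched and 2 were depleted, and the median was 0.05. Foxb1, of the diencephalon and midbrain, had 73 H3K27 reads against 13, a ratio of 4.51 (2.48 to 8.88). Foxd1, the factor of renal stromal progenitors, had 13 against 33, a ratio of 0.317 (0.153 to 0.618), beside 131 H3K4 reads. Of 6 Irx factors, Irx4, a ventricular heart factor, was enriched with 31 reads and 1, and Irx5 was depleted with 13 and 32 and had 141 H3K4 reads. Pax factors were enriched at 3 of 9 members (median 0.15). Pax3, of neural crest and muscle, had 43 and 12 reads, a ratio of 2.88 (1.49 to 6.0), whereas both kidney Pax genes lay between the limits: Pax2 had 9 and 8 and Pax8 had 26 and 24. The H3K4 ratio of each gene shares the mK4 input with its H3K27 ratio, so the reads are given side by side only. They are given at some genes and not at others, from a library of 714011 reads beside 386695 in the input. As log2 ratios over input they gave 1.75 at Sox4, 1.02 at Foxd1 and 1.16 at Irx5. Some other depleted genes lay below 0, as Eya1 (-0.66) and Timp2 (-0.59), and the enriched Irx4 had 1.44. Of all depleted genes 1.70% had H3K4 at least 2-fold over input, so these genes do not stand for their class.

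**Figure D2:**
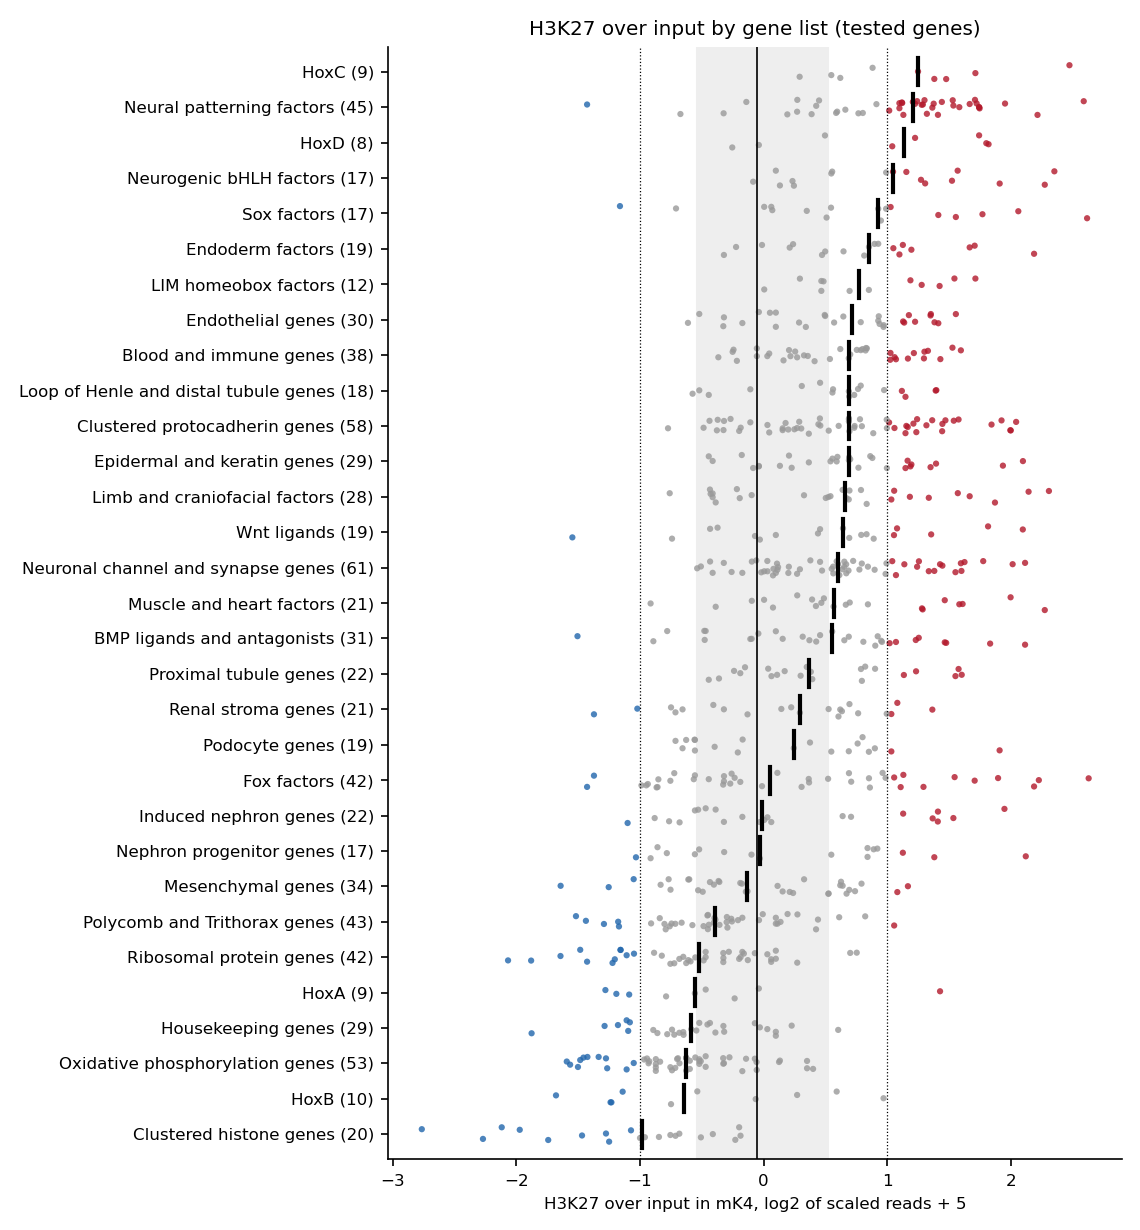
Log2 ratio of H3K27 over input in mK4 (horizontal axis, scaled reads plus 5) for the compared members of 31 gene lists, with the number of members in parentheses; red points are enriched, blue points depleted, grey points between, and black bars list medians. The vertical line marks the median of all genes compared (-0.06), the grey band the range between their quartiles and the dotted lines the 2-fold limits; neural patterning factors, HoxC and HoxD lie to the right, and the medians of HoxB, clustered histone and clustered protocadherin genes change sign when exon length replaces the input.

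The 4 Hox clusters, which set position along the body axis, fell into 2 pairs. Of the 17 HoxC and HoxD genes compared, 10 were enriched and none was depleted, and of the 19 HoxA and HoxB genes 1 was enriched and 7 were depleted. Summed over the cluster, HoxC had 260 H3K27 and 75 input reads, a ratio of 2.79 (2.15 to 3.65), and HoxD had 209 and 71, a ratio of 2.37 (1.80 to 3.14). HoxB had 185 and 232 reads, a ratio of 0.641 (0.525 to 0.781) whose direction was lost in the median with exon length as background. HoxA had 402 and 553, a ratio of 0.584 (0.512 to 0.665). With exon length as background its median log2 ratio was -0.04, near the -0.07 of all genes compared. The intervals of the pairs do not overlap, but the clusters were paired by these same ratios, so this describes the pairing and is no test. For comparison, the 20 compared genes flanking each cluster, 10 on each side in RefSeq order, had ratios of 1.02 (HoxA), 1.25 (HoxB), 1.02 (HoxC) and 1.16 (HoxD). The Hox genes and their flanks were described in full after the values had been seen.

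In HoxC, all 9 genes lay above 1 and 5 were enriched. Hoxc5 had 49 H3K27 reads and 4 input reads, a ratio of 9.84 (3.61 to 37.6), Hoxc6 had 27 and 4, and Hoxc8 had 43 and 10, a ratio of 3.46 (1.71 to 7.71). Hoxc13 had 39 and 11 reads and Hoxc11 14 and 2, while Hoxc4, Hoxc9, Hoxc10 and Hoxc12 did not reach the limit. In HoxD the enriched members were Hoxd8, Hoxd9, Hoxd10, Hoxd12 and Hoxd13. Hoxd13, the most posterior gene, had 47 and 8 reads, a ratio of 4.72 (2.21 to 11.6), and Hoxd9 had 29 and 4. Toward the anterior end, Hoxd1 had 12 and 10 reads, Hoxd3 17 and 17, and Hoxd4 23 and 12. Hoxd11, which acts with Hoxa11 in the metanephric mesenchyme, had 2 reads in each library and could not be compared. The intervals of the anterior genes Hoxd1, Hoxd3 and Hoxd4 held 1. Those of the enriched genes lay above it, but the same ratio picked these genes, so this is no test. In mK3, Hoxd3 had 39 H3K27 and 3 input reads, a ratio of 6.83 (2.17 to 34.5). The mK3 ratios of Hoxd1 and Hoxd4 were 0.665 (0.320 to 1.41) and 1.68 (0.806 to 3.83).

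Over HoxA and HoxB the input was dense, while H3K27 was near its library mean. The median HoxA gene had an H3K27 density of 0.968 times the library mean and an input density of 1.79 times, and the median HoxB gene 1.09 and 1.65 times. When exon length replaced the input as background, the HoxB median log2 ratio turned from -0.64 to 0.09 and the HoxA median moved from -0.56 to -0.04. Hoxa11 had 206 H3K27 and 245 input reads, 91.7 and 109 reads per exon kilobase, and Hoxa10 had 87 and 175 reads, 27.7 and 55.6 per exon kilobase. The genes flanking HoxA had an input density of 6.93 per exon kilobase. Hoxa11 and Hoxa10 also held many input reads in mK3, 347 and 322. As background, the mK lines are known to have been made with SV40 T antigen under Hoxa11 regulatory sequence, whose part in these reads was not tested. Without these 2 genes the HoxA ratio was 0.659 (0.506 to 0.855). The exception within HoxA was Hoxa13, at the posterior end, with 28 H3K27 and 6 input reads, a ratio of 3.75 (1.52 to 11.1). In HoxB, Hoxb6 had 3 and 16 reads, and Hoxb13, the most posterior gene, had 23 and 11, a ratio of 1.68 (0.787 to 3.82). H3K4 reads summed to 1107 over HoxA, 690 over HoxB, 166 over HoxC and 83 over HoxD. Against the same input these were ratios of 1.08 (1.51 without Hoxa10 and Hoxa11), 1.61, 1.20 and 0.633.

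**Figure D3:**
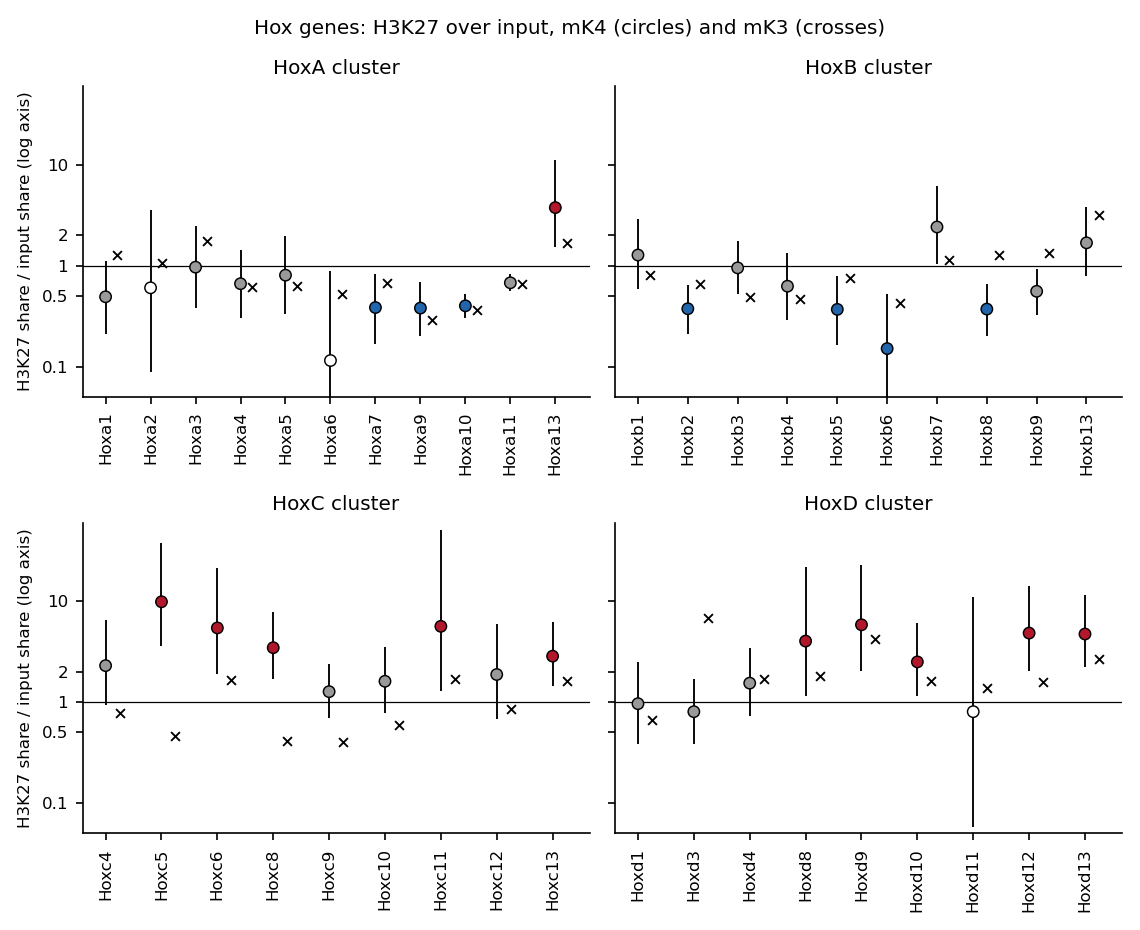
Ratio of the H3K27 read share to the input read share (log axis) for each Hox gene in order along its cluster; circles are mK4 with exact 95% counting intervals, cut at the axis ends, and crosses are mK3 without intervals. Red circles are enriched, blue depleted, grey between and white under 10 reads. Most HoxC and HoxD circles lie above 1, and most HoxA and HoxB circles below. With exon length as background the HoxA and HoxB median log2 ratios were -0.04 and 0.09, beside -0.07 over all genes compared.

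In mK3, HoxD was again over input (1.92, 1.5 to 2.49) and HoxA again under it (0.559, 0.508 to 0.615). The HoxB ratio was 0.844 (0.693 to 1.03), an interval that held 1, and 1 of its 10 genes was enriched and none depleted. HoxC changed direction, with an mK3 ratio of 0.667 (0.542 to 0.823). The HoxC input density was 4.61 reads per exon kilobase in mK4 and 10.2 in mK3, and the H3K27 density 16.0 and 13.0, beside flanking input densities of 5.78 and 6.32 and flanking H3K27 densities of 7.32 and 11.7. The H3K27 density of HoxC was thus raised over its flanks more in mK4 than in mK3, and its input over its flanks in mK3 only. With the mK3 input in place of its own, the mK4 HoxC median fell from 1.25 to 0.13.

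Genes of the nephron lineage had medians near 0 that depended on the setting. Nephron progenitor genes had a median of -0.03, which was 0.34 with no minimum of reads, 0.55 with at least 30 reads and -0.25 with the mK3 input. Induced nephron genes had a median of -0.01, which was 0.43 with exon length as background and 0.64 with the mK3 input. Of 17 compared progenitor genes 3 (17.6%) were enriched and 1 was depleted, and of 22 induced nephron genes 6 (27.3%) and 1, beside 10.2% enriched and 6.86% depleted over all genes. Six2, which holds progenitors undifferentiated, had 26 H3K27 and 10 input reads, a ratio of 2.09 (0.975 to 4.86), and 13 H3K4 reads. Wt1 had 24 and 12 reads, a ratio of 1.61 (0.773 to 3.53). Osr1, an early factor of the nephrogenic mesenchyme, had 6 and 11, and Sall1, a zinc finger factor of progenitors, had 22 and 27. None of these 4 could be told from its input at this depth. Eya1, a cofactor of Six2 and its relatives, was depleted with 25 and 45 reads, a ratio of 0.446 (0.262 to 0.744). Gdnf, the signal that draws out the ureteric bud, lay just short of the limit with 24 and 38 reads, a ratio of 0.508 (0.291 to 0.868). Cited1 had 6 reads in the pair and could not be compared.

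Among induced nephron genes, several Notch pathway members were enriched. Hes5, a Notch target, had 23 H3K27 reads and 2 input reads, Dll1, a Notch ligand, had 62 and 17, a ratio of 2.93 (1.69 to 5.35), and the target Hey1 had 60 and 20. Pou3f3, a factor of the distal nephron, had 63 and 15, a ratio of 3.37 (1.90 to 6.38). Lfng, which modifies Notch receptors, was depleted with 37 and 68 reads, a ratio of 0.437 (0.285 to 0.662). It lay above the level given by its exon length (log2 ratio 0.90) and had 173 H3K4 reads (H3K4 log2 ratio 0.44). Jag1 had 36 and 39, and Wnt4, the inducer of epithelium in the mesenchyme, only 6 and 5. Cdh6, a cadherin of the renal vesicle, had 222 and 259 reads, 84.0 and 98.0 per exon kilobase. It closes a dense stretch of chromosome 15 described further on.

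Genes of the later tubule segments had medians above that of all genes. Of 18 distal tubule and loop of Henle genes 4 were enriched and none depleted (median 0.69), and of 22 proximal tubule genes 5 and none (median 0.37). Bsnd, a chloride channel subunit of the thick ascending limb, had 37 and 9 reads, a ratio of 3.30 (1.57 to 7.78). Slc5a1, a sodium glucose transporter, had 65 and 15, a ratio of 3.48 (1.96 to 6.57), and Slc22a12, the urate transporter, had 36 and 7. Nphs1, the podocyte slit diaphragm protein nephrin, had 69 and 12, a ratio of 4.62 (2.48 to 9.37), although 2 of 19 podocyte genes (10.5%) were enriched in all. Ureteric bud and collecting duct genes were enriched at 3 of 25 members (12%), near the 10.2% of all genes. Ret, the receptor for Gdnf, had 109 and 36 reads, a ratio of 2.43 (1.66 to 3.65), and Spry1, an inhibitor of Ret signalling, was depleted with 11 and 30. Of 21 renal stroma genes 3 (14.3%) were enriched and 2 (9.52%) depleted, among the latter Foxd1, near the 10.2% and 6.86% of all genes. Pdgfra, a receptor of mesenchymal and stromal cells, had 79 and 28 reads, a ratio of 2.27 (1.46 to 3.62).

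Epithelial junction genes had a median of 0.48, and 33 of the 43 lay above 0. Of these genes 4 were enriched, close to the share of all genes, and none was depleted. Cdh1, which encodes E-cadherin, had 74 H3K27 and 27 input reads, a ratio of 2.20 (1.40 to 3.56). Esrp1, an epithelial splicing regulator, had 79 and 16, a ratio of 3.97 (2.30 to 7.28), and Epcam had 26 and 8. Mesenchymal genes had a median of -0.14, which was 0.03 with exon length as background and -0.01 without chromosomes X and Y. Of 34 genes 2 (5.88%) were enriched and 3 (8.82%) depleted, beside 10.2% and 6.86% of all genes. Col6a2, an enriched member, had 31 and 9 reads, a ratio of 2.77 (1.29 to 6.61). Timp1 and Timp2, inhibitors of matrix proteases, had 4 and 18 and 14 and 32 reads, and Snai2, a repressor of E-cadherin, had 12 and 24, a ratio of 0.402 (0.183 to 0.835). Twist1, another mesenchymal factor, had 22 and 10 with a single H3K4 read.

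Of 135 compared signalling genes in 6 lists, 30 (22.2%) were enriched and 5 (3.70%) depleted, beside 10.2% and 6.86% of all genes. Wnt ligands were enriched at 5 of 19 members and depleted at 1, with a median of 0.64. Wnt1, a midbrain ligand, had 60 and 11 reads, a ratio of 4.38 (2.28 to 9.25), and Wnt8b, of the forebrain, had 71 and 20. Wnt5a, a ligand of mesenchyme, was depleted with 8 and 26, beside 72 H3K4 reads (H3K4 log2 ratio 0.52). Among Wnt receptors and antagonists 6 of 28 were enriched, with Notum, an enzyme that inactivates Wnt proteins, at 44 and 6 reads, and Fzd5, a receptor, was depleted at 41 and 79. BMP ligands and antagonists were enriched at 8 of 31 members (median 0.56). Lefty2, an inhibitor of Nodal, had 43 and 10 reads, a ratio of 3.46 (1.71 to 7.71), Chrd, which binds BMPs, had 57 and 17, and Bmp7, a survival signal of nephron progenitors, had 22 and 4. The BMP antagonist Nog lay below 1 with 22 and 36 reads, a ratio of 0.491 (0.275 to 0.858), and had 149 H3K4 reads. FGF ligands were enriched at 4 of 19 members. Fgf20, a signal of nephron progenitors, had 30 and 9 reads. Notch pathway genes were enriched at 7 of 24 members (29.2%). Hedgehog pathway genes were enriched at 0 of 14, too few to set apart from the 10.2% of all genes. Sufu, an inhibitor of Gli factors, was depleted at 11 and 32.

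Structural and functional genes of other tissues were also over input, at shares between those of all genes and those of the neural regulators. Endothelial genes were enriched at 9 of 30 members (median 0.72), blood and immune genes at 12 of 38 (0.70), epidermal and keratin genes at 8 of 29 (0.69), neuronal channel and synapse genes at 16 of 61 (0.60), muscle structural genes at 6 of 30 (0.59) and liver genes at 6 of 24 (0.54). In these 6 lists 1 gene was depleted, Nppa, with 2 and 8 reads. Sox18, an endothelial factor, had 31 and 7 reads, a ratio of 3.56 (1.54 to 9.57), and Tek, the angiopoietin receptor, had 39 and 10. Gfi1 and Itgam, of myeloid cells, had 54 and 15 and 68 and 20. Krt75, a hair follicle keratin, had 42 and 5, a ratio of 6.75 (2.67 to 21.9). Myh3, the embryonic myosin, had 69 and 13, a ratio of 4.26 (2.34 to 8.41), and Acta1, skeletal muscle actin, had 33 and 4. Slc17a7, a vesicular glutamate transporter, had 54 and 10, a ratio of 4.34 (2.19 to 9.56), and Th, the enzyme of the first step of catecholamine synthesis, had 21 and 1. Tat, a liver enzyme, had 43 and 7. Potassium channel genes as a family were enriched at 21 of 89 members and depleted at 1, with Kcng3 at 60 and 8.

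Depletion gathered in genes of protein synthesis, respiration, chromatin and other functions of every cell. None of the 42 ribosomal protein genes compared was enriched and 11 were depleted, with a median of -0.52, and 44 of the 86 had too few reads. Mitochondrial ribosomal protein genes were depleted at 10 of 58 members (median -0.47) and oxidative phosphorylation genes at 11 of 53 (median -0.63), with none enriched. Ndufa13, a subunit of respiratory complex I, had 7 H3K27 and 24 input reads, a ratio of 0.234 (0.0853 to 0.561). Housekeeping genes were depleted at 6 of 29 members (median -0.58). With exon length as background the medians of ribosomal, mitochondrial ribosomal and housekeeping genes were -0.13, -0.28 and -0.25, beside -0.07 over all genes. Their H3K27 densities were 0.860, 0.727 and 0.796 times the library mean, and their input densities 1.76, 1.33 and 1.17 times. Actb, cytoskeletal actin, lay between the limits with 54 and 58. The 20 clustered histone genes compared, of 65, were depleted at 9 members and all lay below 0, with a median of -0.98 that turned to 0.26 with exon length as background. Their H3K27 density was 1.38 times the library mean and their input density 3.66 times. Histone genes have near-identical copies, and how reads that match several copies were counted is not given in the sources used here.

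Proteasome genes were depleted at 5 of 40 members (12.5%), beside 6.86% of all genes, and their 2 enriched members were not constitutive subunits: Psmb8, the immunoproteasome subunit, had 20 reads and 1, and Psma8, of the testis proteasome, had 21 and 4. Polycomb and Trithorax genes, the writers and readers of the marks themselves, were depleted at 5 of 43 members (11.6%, median -0.39). Men1, a partner of the MLL methyltransferases, had 20 and 53 reads, a ratio of 0.303 (0.172 to 0.516), and Ash2l had 9 and 26. The 1 enriched member was Cbx8, a Polycomb subunit, with 18 and 5, and Ezh2, the H3K27 methyltransferase, had 18 in each library. Among cell cycle inhibitors and genes of the p53 axis none of 19 was enriched and 2 (10.5%) were depleted. The shares over all genes were 10.2% and 6.86%, and the median of this short list was -0.17. Btg2 and Gadd45a, targets of p53, were depleted with 12 and 43 and 7 and 29 reads, and Cdkn2a, a well known Polycomb target, had only 5 and 9.

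The 2 libraries contributed in different measure to the 2 ends. Enriched genes had a median of 13.1 H3K27 reads per exon kilobase, 1.70 times the library mean, and 3.0 input reads, 0.484 times the mean. Depleted genes had 3.94 H3K27 reads, 0.510 times the mean, and 10 input reads, 1.61 times. The genes between had 7.10 and 6.07. H3K27 density was above the library mean at 91.2% of enriched and 10.8% of depleted genes, and input density at 5.35% and 89.4%. Both values form the ratio that sorted the genes, so this describes the sorting and is no test. By list, the neural patterning factors combined high H3K27 density with low input (1.84 and 0.683 times the library mean). Not all developmental lists did, as the Irx factors had 0.811 and 1.20 times and HoxA 0.968 and 1.79 times. Some lists of other tissues did, as the endothelial genes with 1.23 and 0.701 times. Clustered protocadherin genes were enriched at 20 of 58 members (median 0.69, -0.25 with exon length as background) with H3K27 below the mean at 0.819 times and input at 0.428 times. Oxidative phosphorylation genes had H3K27 at 0.855 times and input at 1.79 times. What sets the input density of a gene was not tested.

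**Figure D4:**
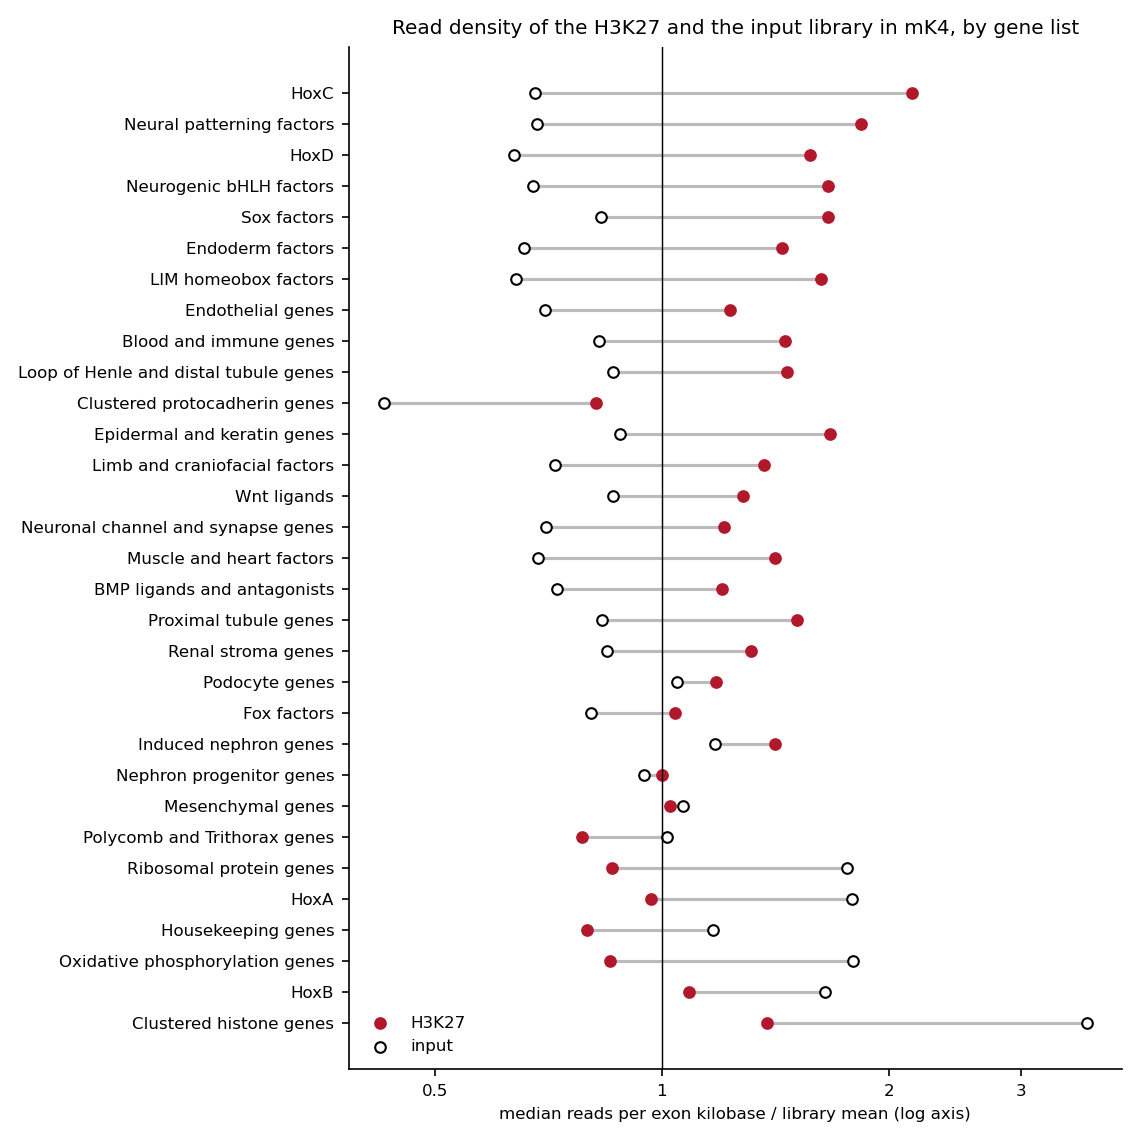
Median reads per exon kilobase, divided by the library mean (log axis), of the H3K27 library (red) and the input library (open) over the compared members of each list in mK4. Neural patterning factors and HoxC lie above the mean in H3K27 and below it in input, whereas clustered histone and HoxB genes are above the mean in both and clustered protocadherin genes below it in both, and the sign of these 3 medians reverses with exon length as background.

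Enriched genes lay beside each other on the chromosomes. Of 17840 compared genes placed in RefSeq order, 32.2% of the enriched genes had an enriched direct neighbour, against 18.9% of all placed genes, and 15.3% of the depleted genes had a depleted neighbour, against 13.1%. The order held 13 runs of at least 4 enriched genes and 1 run of 4 depleted genes. The run from Evx2 to Hoxd8 held 6 genes, with 176 H3K27 and 34 input reads and a ratio of 4.16 (2.87 to 6.2). A type II keratin run from Krt83 to Krt75 had 151 and 23 reads, a ratio of 5.28 (3.39 to 8.58), and a type I run from Krt32 to Krt15 had 132 and 28, a ratio of 3.79 (2.50 to 5.92). The run from Alpi to Chrng, with 2 intestinal alkaline phosphatase genes and the muscle acetylcholine receptor genes Chrnd and Chrng, had 150 and 31 reads, a ratio of 3.89 (2.63 to 5.92). Nphs1 lay in a run of 4 from Aplp1 to Nphs1as, with 177 and 34 reads, a ratio of 4.18 (2.89 to 6.23). Nphs1 and Nphs1as overlap, protocadherin isoforms share exons and keratin genes are similar, so neighbours of these kinds can share reads. The files give no strand.

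The mK3 libraries, which were independent of this pair, recovered part of the sorting. Over the 17361 genes with at least 10 reads in both pairs, H3K27 in mK3 was at least 2-fold over its own input at 11.0% and at least 2-fold under it at 6.02%. Of the 1767 of these genes enriched in mK4, 593 (33.6%) were enriched and 14 were depleted in mK3, with a median log2 ratio of 0.72. Of 1175 depleted in mK4, 188 (16.0%) were depleted and 8 enriched, with a median of -0.49. Seen from mK3, 30.9% of its 1917 enriched and 18% of its 1045 depleted genes had the same call in mK4. List medians had the same sign in both lines for 53 of the 60 lists. HoxC (1.25 in mK4 and -0.27 in mK3) and the Irx factors (-0.37 and 0.50, and 0.33 in mK4 with the mK3 input) were of opposite sign, and the induced nephron genes had -0.01 and 0.71. Neural patterning factors were enriched at 27 of 45 members in mK3, with a median of 1.33. Lhx1 had 110 H3K27 and 8 input reads in mK3, a ratio of 7.22, beside its 1.0 in mK4. Differences between the lines were not tested.

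**Figure D5:**
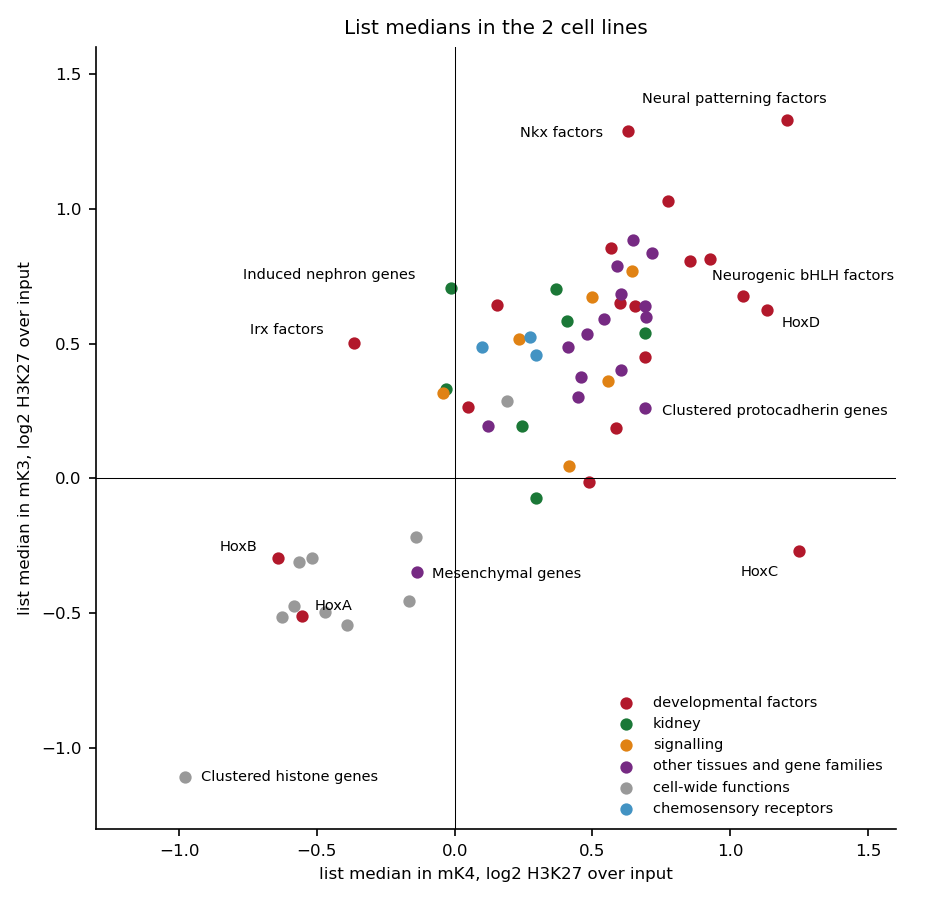
Median log2 ratio of H3K27 over input for each of the 60 gene lists in mK4 (horizontal) and mK3 (vertical), coloured by class of list, with some lists named. Of the 60 lists 53 lie upper right or lower left of 0, with HoxC at 1.25 and -0.27 apart from them; the clustered protocadherin, clustered histone and HoxB medians change sign with exon length as background.

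The mK4 library labelled H3K4 was set against the same input. H3K4 was at least 2-fold over input at 3.44% of the genes compared, at 7.64% of the H3K27-enriched genes, 3.07% of those between and 1.70% of the depleted. Because both ratios hold the mK4 input, these shares cannot be read as a relation of the marks. The library labelled H3K4, whose mark is in doubt, had a median of 7.52 reads per exon kilobase at enriched genes, 10.3 at genes between and 14.9 at depleted genes. The mK4 input helped to sort these classes, and its own medians ran the same way, at 3.0, 6.07 and 10. These densities therefore cannot be read as a relation of the marks either.

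Short genes were called more often in both directions: 12.9% enriched and 8.69% depleted in the shortest of 5 equal groups by exon length, and 7.61% and 4.16% in the longest. By chromosome, the enriched share ran from 6.51% on chromosome 12 to 12.3% on chromosome 1. Density differed more than calls did: the mK4 input lay between 0.791 times the library mean on chromosome 7 and 1.72 times on chromosome 15, with 1.71 on chromosome 3, and H3K27 followed it, at 0.818, 1.82 and 1.63 times. Ratios of H3K27 to input over whole chromosomes stayed between 0.945 and 1.06.

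Chromosome 15 held 1 dense stretch of 34 neighbouring compared genes, from Nipbl to Cdh6, found as genes whose running median input density over 9 neighbours was at least 4 times the library mean. Its H3K27 density was 13.6 times, its input 12.5 times and its H3K4 11.7 times the mean of the library, against 1.55 and 1.43 times for H3K27 and input in mK3. The summed ratio was 1.09 (1.06 to 1.12), so the own input removes most of this density, while exon length and the mK3 input do not. The stretch held 2.87% of H3K27 and 2.64% of input reads, and without it and 9 genes in 2 shorter stretches 1908 genes were enriched and 1257 depleted. The many reads gave narrow intervals there. Rxfp3, a relaxin family peptide receptor, had 1394 H3K27 and 390 input reads, a ratio of 2.87 (2.57 to 3.22), and its neighbour Slc45a2, a transporter of pigment cells, had 753 and 263, a ratio of 2.30 (2.00 to 2.66). Further along, Tars, the threonine tRNA synthetase that every cell uses, had 169 and 246, a ratio of 0.552 (0.451 to 0.674), and Drosha, the nuclease of miRNA processing, had 322 and 424, a ratio of 0.610 (0.526 to 0.707). These 4 intervals exclude 1, in opposite directions within 1 stretch. The genes were chosen after their values had been seen, and the cause of the density was not tested.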

How the data were processed

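Chromatin of 2 cell lines was sequenced in 6 libraries, 1 per line and antibody or input, by a service provider on an Illumina pipeline, per the labels' protocols. The genome build is mm9, per the submitters' processing notes, and the aligner and the treatment of duplicates were not given in the sources used here. The authors deposited read counts per gene, the total length of its exons and RPKM values, per the file headers. The deposited RPKM followed from the counts, the exon length and the column sum, so reads over exons were counted and not reads at promoters, and no strand was recorded; RPKM was not used further.

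Of 22088 rows, the row with the longest exons was kept for each of 137 repeated symbols. Counts of mK4 H3K27 and mK4 input were divided by their column sums, scaled to the mean total of 513622 reads, and compared as log2 of scaled reads plus 5 in genes with at least 10 reads in the pair. A gene without input reads was set against a floor of 3 reads. The calculation was tested on simulated data. Named genes are the 30 with the highest lower and the 20 with the lowest upper bound of the ratio (clone-named, small RNA and olfactory or vomeronasal receptor genes left out), up to 5 enriched and 2 depleted members of each of 60 lists, and 32 fixed genes. Single Hox genes, genes of chromosomal runs, genes of the dense stretch and genes at the limits of the rule were named after their values had been seen. The members and lists were chosen with earlier results of these data known. RefSeq GRCm38.p6 gave gene order (16002 genes placed by symbol, 1838 by synonym, 169 not placed) and promoter windows, and no coordinates were converted. Alternatives were other pseudocounts and minimums, median centring, TMM factors from edgeR 4.0.16 (R 4.3.3) used only as scaling, other backgrounds, other rows per symbol, and leaving out the sex chromosomes or dense stretches. Calculations used Python 3.11.15, numpy 2.4.6, pandas 2.3.3, scipy 1.17.1 and matplotlib 3.10.9. Some named genes are not reported here.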

Additional observations from a re-analysis of the deposited data

Results flagged for a closer look

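Among the named genes, 2 passed the 2-fold limit in opposite directions in the lines. Hoxc8, a posterior Hox gene, had 43 H3K27 and 10 input reads in mK4 and 38 and 49 in mK3, so that its log2 ratios of 1.48 and -1.18 differed by 2.66. Msx1, a homeobox gene of craniofacial and limb mesenchyme, had 22 reads and 1 in mK4 and 9 and 17 in mK3, and its log2 ratios of 2.17 and -1.37 differed by 3.54. At both genes input reads differed between the lines more than H3K27 reads, and the mK4 ratio was below 1 with the mK3 input. With 1 library per line and antibody the difference was not tested. Reads of Msx1 cannot be told apart from those of its antisense partner Msx1as.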

How the results depend on the processing

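No paired analysis was possible because each line had 1 library per antibody. Against 1832 enriched and 1235 depleted genes, a pseudocount of 1 gave 2125 depleted, and a pseudocount of 20 gave 349 enriched and 103 depleted. Exon length as background gave 798 enriched, and the mK3 input as background gave 1895 depleted. Counting every gene with an exact interval past 1 gave 2449 depleted. A minimum of 30 reads gave 1133 enriched and 676 depleted, but of only 11068 genes compared. These were shares of 10.2% and 6.11%, beside 10.2% and 6.86% with the main rule. The other settings, among them median centring, TMM factors and leaving out the dense stretches (added after seeing the data), kept both counts within 1.5 times. With exon length as background, 318 of the 1832 enriched and 299 of the 1235 depleted genes kept their call, and with the mK3 input 838 and 562. Of the 30 highest genes 19 and 24 stayed past the limit under these 2 backgrounds, and of the 20 lowest 8 and 13. Of the 60 list medians, 34 moved by more than the counting error of their list with exon length and 3 more changed sign, 36 with the mK3 input, 36 with a pseudocount of 20 and at most 14 under any other setting. With exon length the medians of neural patterning factors, HoxD, endothelial and neuronal genes were 0.68, 0.51, 0.21 and 0.26, against 1.21, 1.13, 0.72 and 0.60. With exon length the median log2 ratio became 0.0905 for HoxB, 0.26 for clustered histone genes and -0.25 for clustered protocadherin genes, and the value became 1.66 for Hoxa10 and 0.90 for Lfng. With the mK3 input it became -0.12 for clustered protocadherin genes, -0.75 for Hoxc8, -0.21 for Msx1 and 0.051 for Lfng. Of the 290 named genes compared, 25 changed sign with exon length and 18 with the mK3 input, and none under the other settings. The cause was not tested. Genes near the minimum of 10 reads have intervals wider than the 2-fold limit.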

Other observations

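Some gene groups not described above also held enriched genes, beside 10.2% enriched and 6.86% depleted over all genes compared. Chemokine and interleukin genes were enriched at 14 of 57 members compared (24.6%), with a median log2 ratio of 0.60, and depleted at 2. Il1b, the inflammatory cytokine, had 20 H3K27 reads and 1 input read, and Il25, a cytokine of type 2 immunity, had 21 and 2. Secreted serpin and defensin genes were enriched at 7 of 45 members (15.6%), with a median of 0.46 and none depleted. Imprinted genes were enriched at 7 of 40 members (17.5%) and depleted at none, with a median of 0.19. Dio3, the deiodinase that inactivates thyroid hormone, had 36 and 5 reads, a ratio of 5.79 (2.26 to 18.9), and Airn, the noncoding RNA that silences Igf2r on the paternal chromosome, had 21 and 4, a ratio of 4.22 (1.42 to 16.9).

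Collagen genes were enriched at 4 of 41 members, near the share of all genes, and depleted at 1. Col9a3, a cartilage collagen, had 47 and 10 reads, a ratio of 3.78 (1.88 to 8.38), and Col4a2, a collagen of basement membranes, was depleted with 29 and 57, a ratio of 0.409 (0.252 to 0.650). Cytochrome P450 genes were enriched at 12 of 78 members (15.4%), beside 10.2% of all genes. Cyp24a1, which inactivates vitamin D in the kidney, had 84 and 14 reads, a ratio of 4.82 (2.72 to 9.20).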
